A study of Homo sapiens with 8 samples.

Results

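Collagens and fibronectin are the main fibrous proteins of the extracellular matrix, and their transcripts were examined in 4 prostate cancer cell lines with and without depletion of DNA-PK. The genes were every symbol of the form COL, number, A, number, plus FN1, the fibronectin gene. The array table held 43 of them (42 collagen genes and FN1) among 22395 named genes. COL17A1 was not analysed here, and neither was COL3A1, whose probe set is listed with a second gene. Of the 43, 32 (31 collagen genes and FN1) had a mean signal above the 25th percentile of all genes, 2.51 on the log2 scale, and only these 32 entered the tests, among 16796 genes.

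The lines were C4-2B, DU145, PC3 and VCaP, all established from metastatic human prostate cancer or, for C4-2B, derived from such a line (LNCaP). Each line was transfected with non-targeting siRNA (the control) or with siRNA against DNAPK, and RNA was taken 48 hours later, giving 1 array per siRNA and line and 8 arrays in all. C4-2B and PC3 grew in RPMI1640 and DU145 and VCaP in DMEM, so line and medium cannot be told apart between these pairs. No culture was repeated, so the replicates are the 4 lines, and p-values for the siRNA reflect only how much the response varied from line to line. Signals are log2 values, on which a difference of 1 is a 2-fold change, and differences are DNAPK siRNA minus control throughout. In RNA from a whole culture, less transcript per cell and fewer cells with the transcript cannot be told apart.

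Collagens are trimers of chains wound into a rod-like helix. Fibrillar types such as I and V form the banded fibres of connective tissue, type IV forms the sheet-like network of basement membranes, type VI forms beaded microfibrils around cells, and fibril-associated types decorate fibres. Fibronectin is a secreted dimer that cells bind through integrins and assemble into fibrils, on which other matrix proteins, collagens among them, are laid down. In the prostate most fibrillar collagen is made by stromal fibroblasts, while epithelial cells rest on a type IV network, and fibronectin and other matrix genes are often raised in carcinoma cells with mesenchymal features. DNA-PK is a kinase of DNA end joining, and the study asked how its loss alters transcription, with Wnt signalling named in its title.

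The sequences just upstream of the starts of the genes that the results turn on are shown first. FN1 is the member with the lowest mean difference and the highest signal. COL12A1 and COL6A3 are the other members with a signal above 6 on some array that read lower in all 4 lines. COL4A1 and COL4A2 are divergent neighbours whose starts are 126 bases apart, so a single stretch lies upstream of both. All come from RefSeq on GRCh38.p14 and are written 5′ to 3′ on the strand of the gene, or on the plus strand for the shared stretch. Positions are chr2:215436069-215436318 (minus strand) for FN1, chr6:75206054-75206303 (minus) for COL12A1, chr2:237414165-237414414 (minus) for COL6A3 and chr13:110307158-110307283 (plus) for the stretch between COL4A1 and COL4A2. The RefSeq gene table has FN1-DT, a long non-coding RNA gene, across the FN1 stretch, and no gene across the other 3. Capitals mark a cyclic AMP response element (TGACGTCA), a CCAAT box (CCAAT) and a TATA-like match (TATAA).
FN1: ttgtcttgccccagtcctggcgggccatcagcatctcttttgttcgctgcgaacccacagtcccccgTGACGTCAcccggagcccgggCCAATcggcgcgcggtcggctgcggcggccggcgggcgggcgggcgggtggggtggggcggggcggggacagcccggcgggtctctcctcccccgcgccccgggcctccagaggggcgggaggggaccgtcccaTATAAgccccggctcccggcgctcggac
COL12A1: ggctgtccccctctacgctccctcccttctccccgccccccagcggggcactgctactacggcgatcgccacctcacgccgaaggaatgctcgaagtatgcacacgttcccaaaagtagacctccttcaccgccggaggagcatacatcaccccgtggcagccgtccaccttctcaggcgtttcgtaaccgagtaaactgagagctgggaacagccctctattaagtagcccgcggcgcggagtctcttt
COL6A3: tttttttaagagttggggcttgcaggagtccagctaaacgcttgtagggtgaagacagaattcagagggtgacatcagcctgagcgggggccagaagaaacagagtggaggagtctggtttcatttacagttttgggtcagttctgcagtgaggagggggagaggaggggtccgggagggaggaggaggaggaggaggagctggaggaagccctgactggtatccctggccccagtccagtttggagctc
COL4A1-COL4A2: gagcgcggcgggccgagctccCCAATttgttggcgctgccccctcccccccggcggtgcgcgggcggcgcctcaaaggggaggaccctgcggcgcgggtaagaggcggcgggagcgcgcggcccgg

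Counted from the first base shown, the FN1 stretch holds TGACGTCA at base 68, CCAAT at base 89 and TATAA at base 223, and it also holds 6 matches to GGGCGG (a GC box), some of which overlap. The stretch between COL4A1 and COL4A2 holds CCAAT at base 22 and GGGCGG at base 62. COL12A1 holds a single GGGCGG, at base 33, and COL6A3 none of these letters. Matches are on either strand. The search covered the 250 bases upstream of 34943 RefSeq starts, and 32 of the 43 genes had such an entry. TGACGTCA was present in 1.63% of all windows and, among the 32 genes, in FN1 alone. CCAAT was present in 32% of all windows and in 11 of the 32 genes, TATAA in 19% and 8 genes, and GGGCGG in 42.5% and 22 genes. The percentages are of windows, while a gene was counted if any of its windows matched. Shares and gene counts are therefore not like for like where a gene has several starts. The TCF/LEF letters CTTTGAT, searched because these factors act in Wnt signalling, were in 2.27% of windows and in 0 of the 32 genes, and CTTTGAA was in 3.81% and in COL13A1 and COL26A1. These are matches of letters and not sites of binding.

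In every line FN1 read lower after DNAPK siRNA than after control siRNA. In C4-2B it read 9.09 with control siRNA and 8.24 with DNAPK siRNA, in PC3 9.29 and 8.66, in DU145 5.81 and 5.33, and in VCaP 3.93 and 3.31. The 4 line differences were close to each other although the lines' levels were far apart. They were -0.84, -0.63, -0.48 and -0.62 in that order, which leaves 55.7%, 64.6%, 71.7% and 65.0% of the control signal. The mean difference was -0.64 ± 0.15 (SD, n = 4 lines), with a limma 95% interval from -0.91 to -0.38. Its unadjusted p of 6.37e-04 was the number 6 from the smallest of 16796 genes, but it did not pass after adjustment (limma, adjusted p = 0.688). Within each line, where there is no replicate, the FN1 difference was among the lowest 0.673% of genes in C4-2B, 2.96% in PC3, 6.07% in DU145 and 8.59% in VCaP.

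**Figure D1:**
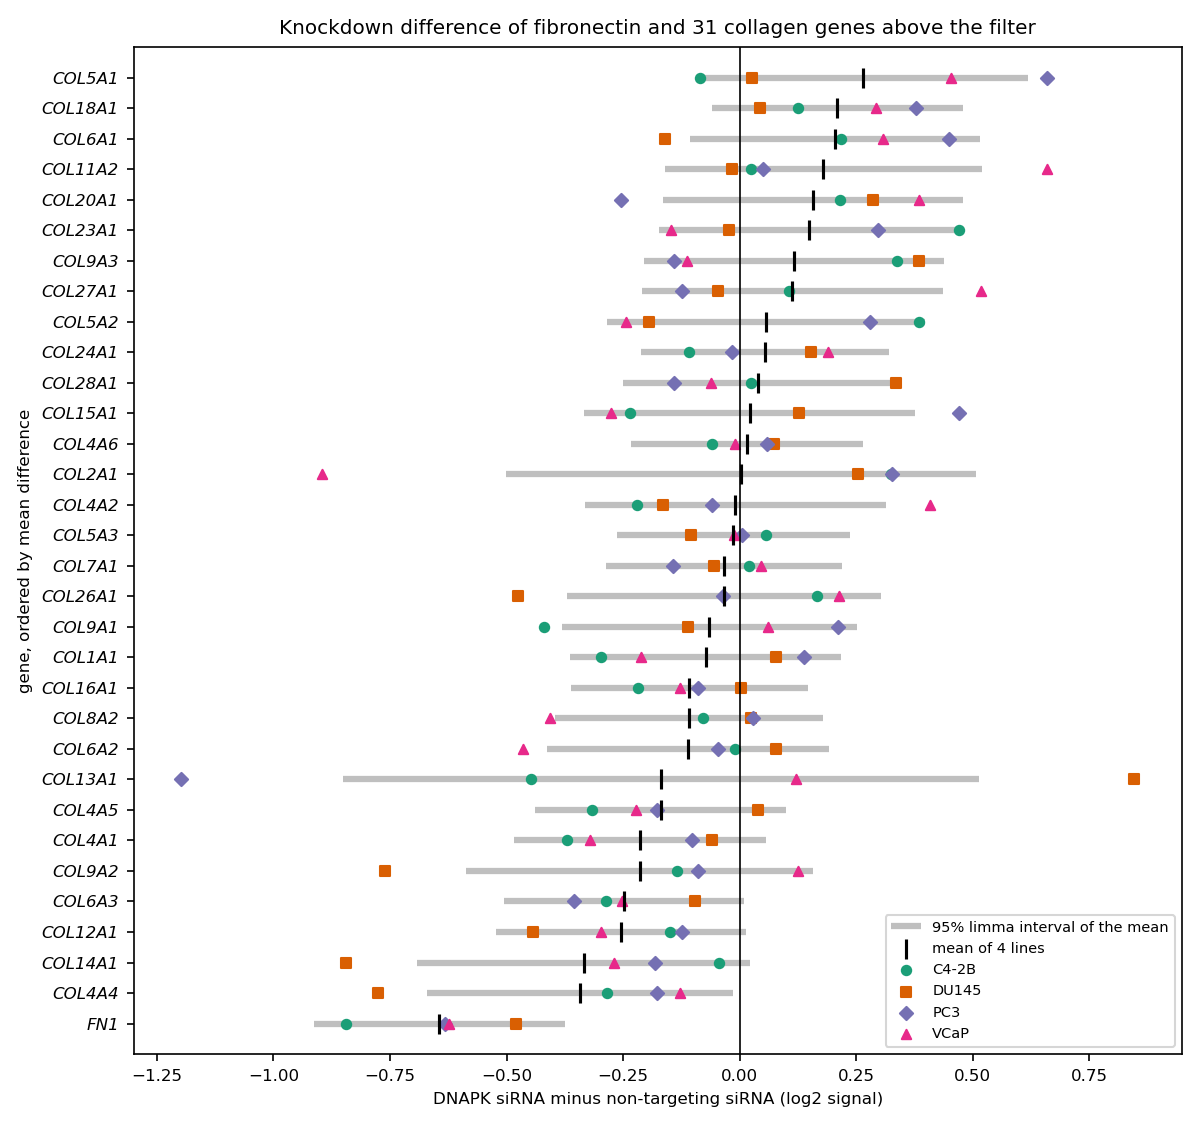
Difference in log2 signal, DNAPK siRNA minus non-targeting siRNA, for the 32 genes above the filter, ordered by the mean over lines. Each point is 1 line, each black tick the mean of 4 lines and each grey bar the limma 95% interval of that mean. FN1 has the lowest mean (-0.64) and its 4 points lie between -0.84 and -0.48, while COL13A1 spans -1.20 to 0.85.

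The depth of the knockdown differed between lines. PRKDC, which encodes the catalytic subunit of DNA-PK, differed by -2.53 in C4-2B, -1.99 in PC3, -1.08 in DU145 and -0.62 in VCaP. The FN1 difference in VCaP had the same size as that of PRKDC, but at a low signal (3.93 to 3.31, against 9.80 to 9.18 for PRKDC). A relation between the 2 differences was not tested. As checks of the lines on the control arrays, KLK3 read 10.12 in C4-2B but 4.46 in VCaP, near its 3.84 in DU145 and 3.68 in PC3. ERG read 8.57 in VCaP against at most 3.52 elsewhere. VIM read 8.19 in DU145 and 7.82 in PC3 against 4.29 in C4-2B and 2.22 in VCaP. TMPRSS2 was lowest in DU145 (2.18) and intermediate in PC3 (6.72), while C4-2B and VCaP gave 9.56 and 9.03. In DU145 it read 3.37 after DNAPK siRNA, a difference of 1.20. CDH1 did not divide the lines as VIM did, since its control signals ranged only from 9.21 (DU145) to 10.38 (C4-2B). Of markers of other cell types, 1 of 7 fibroblast genes, 1 of 3 endothelial genes and 0 of 3 immune genes with a probe set were above the filter. The summed log2 level of the fibroblast genes was 14.6 to 18.8 on the control arrays and 14.3 to 17.1 on the knockdown arrays. These sums hide LUM, which fell below the filter on its mean. Its VCaP signal was 4.62 after control siRNA and 3.50 after DNAPK siRNA, while its highest reading elsewhere was 2.35. ACTA2, also below the filter, was lower after DNAPK siRNA in every line, with differences from -0.63 to -0.20. Neither gene was tested. The endothelial sums were 7.23 to 7.90 and 7.47 to 8.91, and the immune sums 6.24 to 6.87 and 5.91 to 6.43. CD14, an immune gene below the filter and not tested, read 2.82 in VCaP after control siRNA and 1.65 after DNAPK siRNA.

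Across the 4 lines, the siRNA effect did not pass the test for FN1 or for any collagen. The limma fit with the line as a block called 0 of the 32 members and 0% of all 16796 genes at the threshold of 0.05, and no adjusted p was below 0.688. FN1 and COL4A4, 2 members (6.25%), reached an unadjusted p under 0.05, against 7.19% of all genes. Of the 32 members, 6 (18.8%) were lower in all 4 lines, where 5.89% of all genes were. They were FN1, COL12A1, COL6A3, COL14A1, COL4A1 and COL4A4. COL18A1 was the single one of the 32 higher in all 4 lines (3.12%), against 11.5% of all genes. After median centring 7 members were lower in all 4 lines (6.16% of all genes), with COL16A1 added, and with cyclic loess 8 (8.51%), with COL16A1 and COL4A5 added, while COL18A1 was higher in all 4 under both. A mean below 0 was seen for 18 members (56.2%) and 43.6% of all genes. The median over the 31 collagens was -0.01, against 0.03 for all genes. The collagen medians of C4-2B, DU145, PC3 and VCaP were -0.06, -0.02, -0.05 and -0.06, where all genes had 0.04, 0.05, 0.04 and -0.0032.

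COL12A1 encodes a fibril-associated collagen that bridges fibres and other matrix proteins. With control siRNA it read 6.12, 6.49, 6.83 and 3.06 (C4-2B, DU145, PC3 and VCaP), and with DNAPK siRNA 5.97, 6.05, 6.70 and 2.76. Every knockdown value was the lower of its pair, by 0.12 to 0.44, and the mean difference was -0.25 ± 0.15 (limma, unadjusted p = 0.0603, adjusted p = 0.688).

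COL6A3 encodes the longest chain of type VI collagen. In the same order of lines it read 3.18, 2.94, 6.61 and 2.99 with control siRNA, and 2.89, 2.84, 6.25 and 2.74 with DNAPK siRNA. Its mean difference was -0.25 ± 0.11. Outside PC3 these values lie near the filter level. Neither of the other chains of the classical type VI trimer passed the test, and the chains were not tested against each other. COL6A1 had a mean of 0.20 ± 0.26, with values above 0 in 3 lines and -0.16 in DU145, and COL6A2 a mean of -0.11 ± 0.24, with values below 0 in 3 lines and most of it from VCaP (4.002 to 3.54).

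COL4A1 and COL4A2 encode the chains of the common type IV trimer of basement membranes. COL4A1 read 3.33, 4.50, 4.56 and 2.94 with control siRNA in C4-2B, DU145, PC3 and VCaP, and 2.96, 4.44, 4.46 and 2.61 with DNAPK siRNA, a mean of -0.21 ± 0.15. COL4A2, which starts 126 bases away on the other strand, read 3.40, 4.91, 5.29 and 2.86 with control siRNA and 3.17, 4.75, 5.23 and 3.27 with DNAPK siRNA. The pair was lower together in C4-2B, DU145 and PC3 and parted in VCaP, where COL4A1 had -0.32 and COL4A2 0.41. COL4A4, a chain of the specialised network of the kidney glomerulus and a few other tissues, had -0.34 ± 0.30 (limma, unadjusted p = 0.0432, adjusted p = 0.688). Its difference was -0.78 in DU145 (4.22 to 3.44) and -0.29 to -0.13 in the other 3 lines, with a mean of -0.20 without DU145.

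DU145 also set the mean of 2 further fibril-associated collagens with low signals. COL14A1 read 3.22 and 2.37 in that line, a difference of -0.85, and its mean of -0.33 ± 0.35 became -0.16 without it. COL9A2, a chain of cartilage type IX collagen, differed by -0.76 there, and its mean of -0.21 ± 0.38 became -0.03. Neither passed the test with or without DU145.

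Among members with a mean above 0, COL18A1, the source of the endostatin fragment, read 3.52, 4.49, 4.56 and 3.74 with control siRNA in C4-2B, DU145, PC3 and VCaP and 3.64, 4.53, 4.94 and 4.03 with DNAPK siRNA. Its mean difference was 0.21 ± 0.15. COL5A1, the type V chain that helps to start fibrils, had the highest mean of the 32, 0.26 ± 0.35, which came from PC3 (3.51 to 4.17) and VCaP (3.09 to 3.54). In C4-2B and DU145 it differed by -0.09 and 0.03. COL11A2 had 0.18 ± 0.32, of which VCaP gave 0.66, and the mean was 0.02 without VCaP. COL20A1 and COL23A1 had means of 0.16 ± 0.28 and 0.15 ± 0.28, and their lines differed in sign. None of these passed the test.

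COL13A1, a collagen anchored in the plasma membrane at cell contacts, was the single member of the 32 above the filter with a difference past 1 in any line (3.12%, against 6.02% of all genes). In PC3 it read 6.31 with control siRNA and 5.12 with DNAPK siRNA, a difference of -1.20, where 0.542% of genes were lower by more than 1 and 0.53% higher. In DU145 it went the other way, from 3.67 to 4.51, and in C4-2B and VCaP it differed by -0.45 and 0.12. The mean of -0.17 ± 0.87 was 0.17 without PC3, so no common direction was seen. With 1 array per siRNA in each line, the opposite values in PC3 and DU145 were not tested against culture-to-culture variation. COL2A1, the cartilage fibril chain, also had mixed signs, with 0.25 to 0.33 in 3 lines and -0.90 in VCaP.

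By class, the mean difference was above 0 for 6 of 8 fibrillar chains above the filter (median 0.06) and for both multiplexins, COL15A1 and COL18A1 (median 0.12). It was below 0 for 4 of 5 type IV chains (median -0.17) and 5 of 7 fibril-associated chains (median -0.11). The 4 members of the type VI group were split evenly. Of all genes, 43.6% had a mean below 0. The classes are small, and their counts were not tested against that share.

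The response of C4-2B and VCaP was also set against that of DU145 and PC3. The limma contrast called 0 of the 32 members (0% of all genes), the smallest adjusted p of a member was 0.991, and 0 members reached an unadjusted p under 0.05 against 3.7% of all genes. For FN1 the contrast was -0.18 (limma, unadjusted p = 0.501).

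Levels also differed between the 4 lines. A moderated F test over lines, with the siRNA as a covariate, called 19 of the 32 members (59.4%), against 62.6% of all genes, so that members differed between lines about as often as other genes did. Line means lay more than 1 apart for 15 members (46.9%) and for 44.9% of all genes. The line mean was highest in PC3 for 15 members (46.9%; 23% of all genes), in C4-2B for 8 (26% of all genes), in DU145 for 5 (23.6%) and in VCaP for 4 (27.4%). It was lowest in VCaP for 13 (40.6%; 29.2% of all genes), in DU145 for 9 (23.5%), in C4-2B for 6 (21.9%) and in PC3 for 4 (25.4%). Both PC3 arrays stood above the other 6 for 11 members (34.4%), against 13.1% of all genes.

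**Figure D2:**
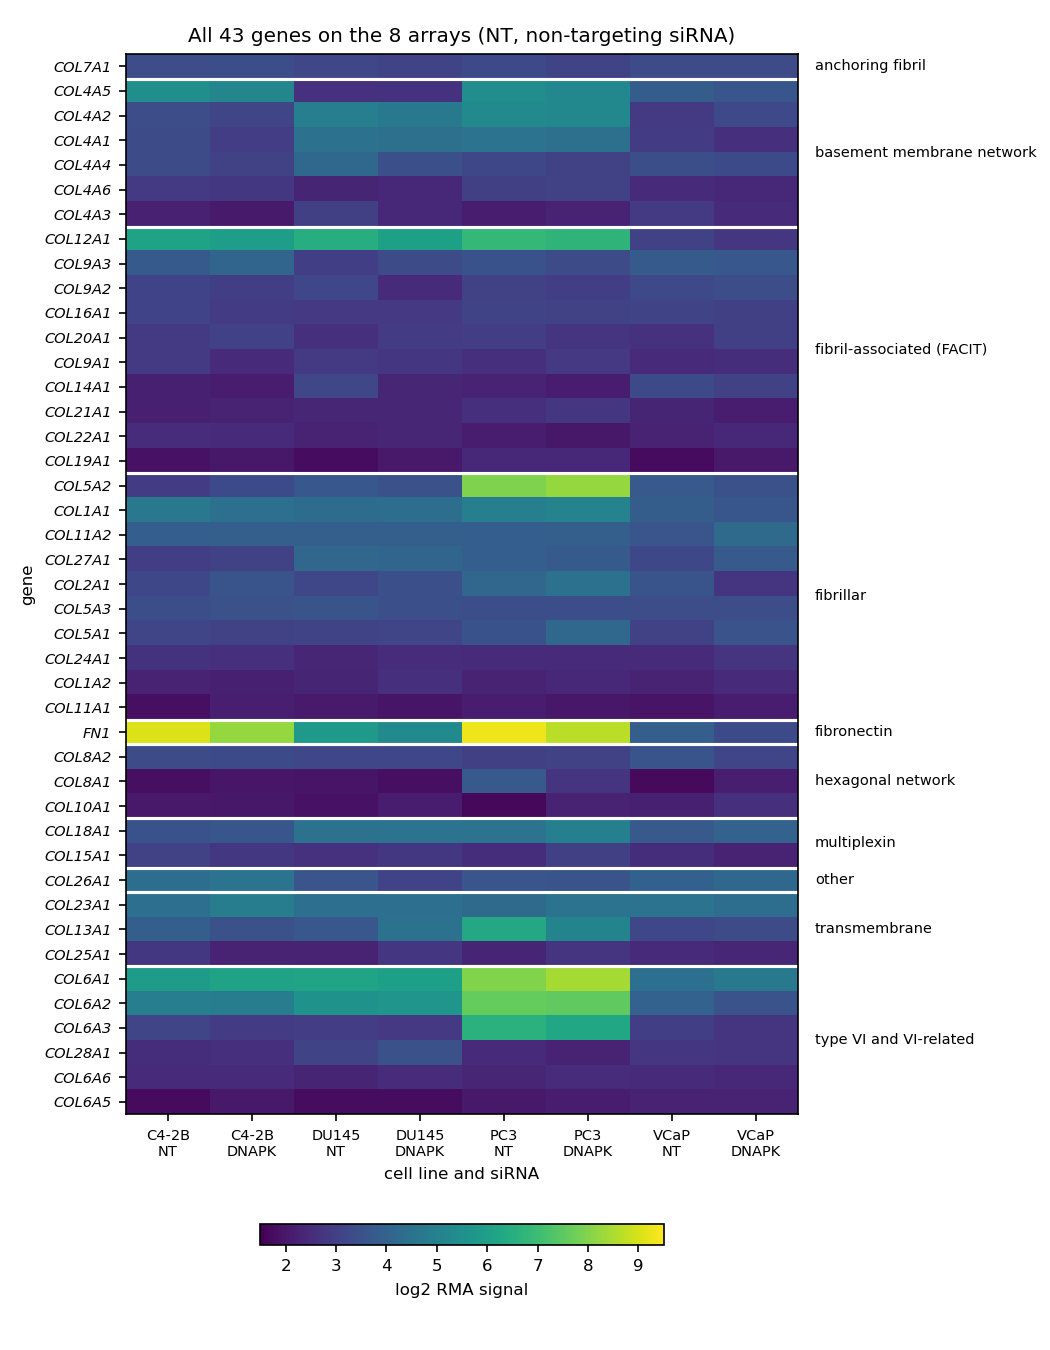
Log2 signal of all 43 genes (rows, grouped by class) on the 8 arrays (columns, by line and siRNA), with NT for non-targeting siRNA. The 2 arrays of a line look alike, and COL5A2, COL6A1, COL6A2 and COL6A3 are brightest in PC3. FN1 is bright in C4-2B and PC3, and COL12A1 is dark only in VCaP among the lines.

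The lines were then compared pair by pair. In limma contrasts at an adjusted p of 0.05, 11 members were higher in PC3 than in C4-2B and 1 lower (18.5% and 17.7% of all genes). PC3 against DU145 gave 10 higher and 2 lower (15.7% and 14.8%), and VCaP against PC3 1 higher and 14 lower (19.6% and 21.5%). VCaP against DU145 gave 2 higher and 10 lower (20.2% and 21.6%), and VCaP against C4-2B 1 higher and 6 lower (16.7% and 18%). DU145 and C4-2B were more evenly matched, with 7 members higher in DU145 and 5 lower (17.5% and 17%). The line arrays are single cultures on each siRNA, so these p-values measure the spread between the 2 arrays of a line after the siRNA effect.

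FN1 had the widest range of line means among the members, 5.35. PC3 and C4-2B were the highest and did not differ beyond their spread (0.31 apart, limma adjusted p = 0.188). DU145 was 3.10 lower than C4-2B (adjusted p = 1.05e-05), and VCaP was 1.95 lower again (adjusted p = 7.83e-05). On the control arrays FN1 and VIM were both high in PC3 (9.29 and 7.82) and both lowest in VCaP (3.93 and 2.22). FN1 was high in C4-2B, where VIM was lower (9.09 and 4.29). It was intermediate in DU145, where VIM was highest (5.81 and 8.19). A relation between the levels of these genes was not tested.

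**Figure D3:**
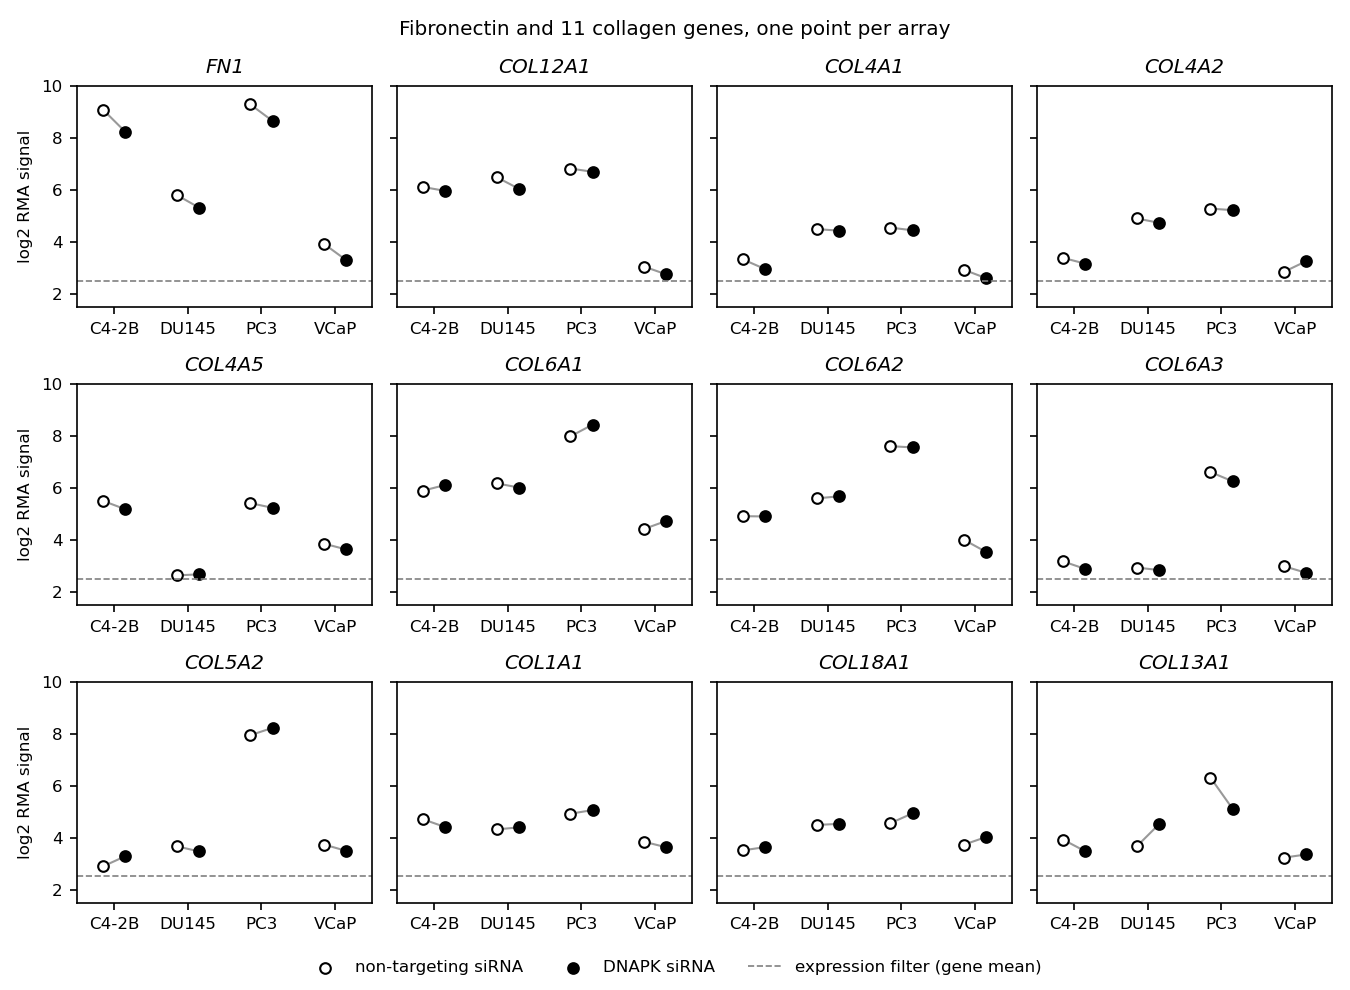
Log2 signal per line for FN1 and 11 collagen genes, with an open point for the control array, a filled point for the DNAPK siRNA array and a dashed line at the filter level of 2.51. The FN1 points lie between 8.24 and 9.29 in C4-2B and PC3 and between 3.31 and 3.93 in VCaP, with DU145 at 5.33 to 5.81.

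Of the fibrillar collagens, COL5A2, a chain of type V collagen, stood out in PC3 with 7.94 and 8.22 (control, then DNAPK siRNA). It read 2.90 and 3.29 in C4-2B, 3.67 and 3.48 in DU145 and 3.74 and 3.495 in VCaP. PC3 was 4.47 above VCaP, the next line (limma, adjusted p = 4.77e-06), and no contrast among the other 3 lines passed. COL5A1, its partner in the type V trimer, stayed between 3.09 and 4.17 on all arrays. It too was highest in PC3, 0.70 above C4-2B (limma, adjusted p = 0.0371), although the F test over all lines did not call it. Its PC3 level did not differ past the threshold from DU145 (limma, adjusted p = 0.0501) or VCaP. COL1A1, the main chain of type I collagen, lay between 3.63 and 5.06, and VCaP was below each of the other lines, by 0.62 against DU145 (adjusted p = 0.0252), 0.82 against C4-2B and 1.25 against PC3. PC3 was also above DU145 by 0.63 (adjusted p = 0.0304), and C4-2B differed from neither PC3 nor DU145 past the threshold. The probe set for COL1A2, the second type I chain, was below the filter.

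The 3 classical type VI chains were each highest in PC3. COL6A1 read 7.98 and 8.43 there, 6.17 and 6.01 in DU145, 5.89 and 6.11 in C4-2B and 4.42 and 4.73 in VCaP. PC3 was 2.11 above DU145, DU145 and C4-2B did not differ beyond their spread (0.09), and C4-2B was 1.43 above VCaP. COL6A2 read 7.60 and 7.56 in PC3, 5.60 and 5.68 in DU145, 4.91 and 4.90 in C4-2B and 4.002 and 3.54 in VCaP, and each of these steps passed (1.94, 0.73 and 1.14). For COL6A3 the gap between PC3 and C4-2B was 3.40, and no contrast among the other 3 lines passed.

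COL12A1 was higher in PC3 than in C4-2B by 0.72 (limma, adjusted p = 0.0107). DU145 lay between them, 0.49 below PC3 (adjusted p = 0.0553) and 0.23 above C4-2B (adjusted p = 0.334), and neither of these steps passed. VCaP was 3.13 below C4-2B (adjusted p = 1.86e-05). COL13A1 was higher in PC3 than in DU145 by 1.62 (adjusted p = 0.0219), although its 2 PC3 arrays were 1.20 apart.

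The type IV chains differed in which lines were high. COL4A1 and COL4A2 were both high in PC3 and DU145 and low in C4-2B and VCaP, with a step from DU145 to C4-2B of 1.32 and 1.54. COL4A5, on the X chromosome beside COL4A6, had another order. It read 5.50 and 5.18 in C4-2B and 5.41 and 5.24 in PC3, which were 0.02 apart, 3.86 and 3.63 in VCaP, and 2.64 and 2.68 in DU145. VCaP was 1.58 below PC3 and DU145 1.09 below VCaP, and both steps passed. COL4A6, whose nearest listed start is 379 bases from that of COL4A5, read 2.32 to 3.07 on all arrays, near the filter level. COL4A4 was highest in DU145, 0.62 above C4-2B (limma, adjusted p = 0.0452) and 0.68 above PC3 (adjusted p = 0.0366), although the F test over all lines did not call it. The first of these did not pass with median centring (0.50, adjusted p = 0.0957), among other alternatives, or without PC3 (adjusted p = 0.0659), and the second did not pass without C4-2B (adjusted p = 0.0686).

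The other members called by the F test (COL27A1, COL26A1, COL28A1, COL14A1, COL4A6, COL2A1 and COL9A3, besides COL18A1 and COL1A1) had line means within 1.25 of each other. COL27A1, a fibrillar chain of cartilage, was highest in DU145 (4.15 and 4.10) and lowest in C4-2B (2.97 and 3.07), and COL26A1 was highest in C4-2B (4.38 and 4.55) and lowest in DU145 (3.59 and 3.12). The 13 members that the F test did not call were COL4A4, COL5A1, COL15A1, COL9A2, COL8A2, COL16A1, COL7A1, COL9A1, COL23A1, COL24A1, COL20A1, COL5A3 and COL11A2.

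The 11 members below the filter were COL1A2, COL4A3, COL6A5, COL6A6, COL8A1, COL10A1, COL11A1, COL19A1, COL21A1, COL22A1 and COL25A1. Apart from COL8A1, the other 10 stayed at or below 3.01 on every array, and their line differences lay between -0.62 and 0.64. COL8A1 read 3.75 with control siRNA in PC3 and 2.74 with DNAPK siRNA, a difference of -1.005. COL19A1 read higher with DNAPK siRNA in all 4 lines, and COL10A1 had the highest mean difference of these genes, 0.32. These genes were not tested.

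Genes that make, export, crosslink, bind and accompany the 2 protein families were read from 6 lists, in which the siRNA test called 0 genes. For the counts of signs in these lists, 43.6% of all genes had a mean below 0, and the counts were not tested against that share. Collagen chains are hydroxylated on proline and lysine and folded in the endoplasmic reticulum. Of 19 genes listed for this, 17 were above the filter, 13 with a mean above 0 and 4 below, and the list median was 0.11 against 0.03 for all genes. In VCaP the median was 0.34. There P4HA1, a subunit of prolyl 4-hydroxylase, went from 8.17 to 10.36, the lysyl hydroxylase gene PLOD2 from 6.81 to 9.47 and PLOD1 from 6.66 to 8.13. In C4-2B, DU145 and PC3 the differences of these 3 genes lay between -0.26 and 0.30, and their means over the lines were 0.53 ± 1.13, 0.57 ± 1.40 and 0.34 ± 0.76. P3H1, a prolyl 3-hydroxylase, had a mean of 0.28 ± 0.26. VCaP was also the line with the smallest PRKDC difference, and its pair of arrays had the widest spread of differences over all genes (SD 0.46, against 0.29 to 0.33 in the other lines). The part of that spread in the VCaP values was not tested.

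**Figure D4:**
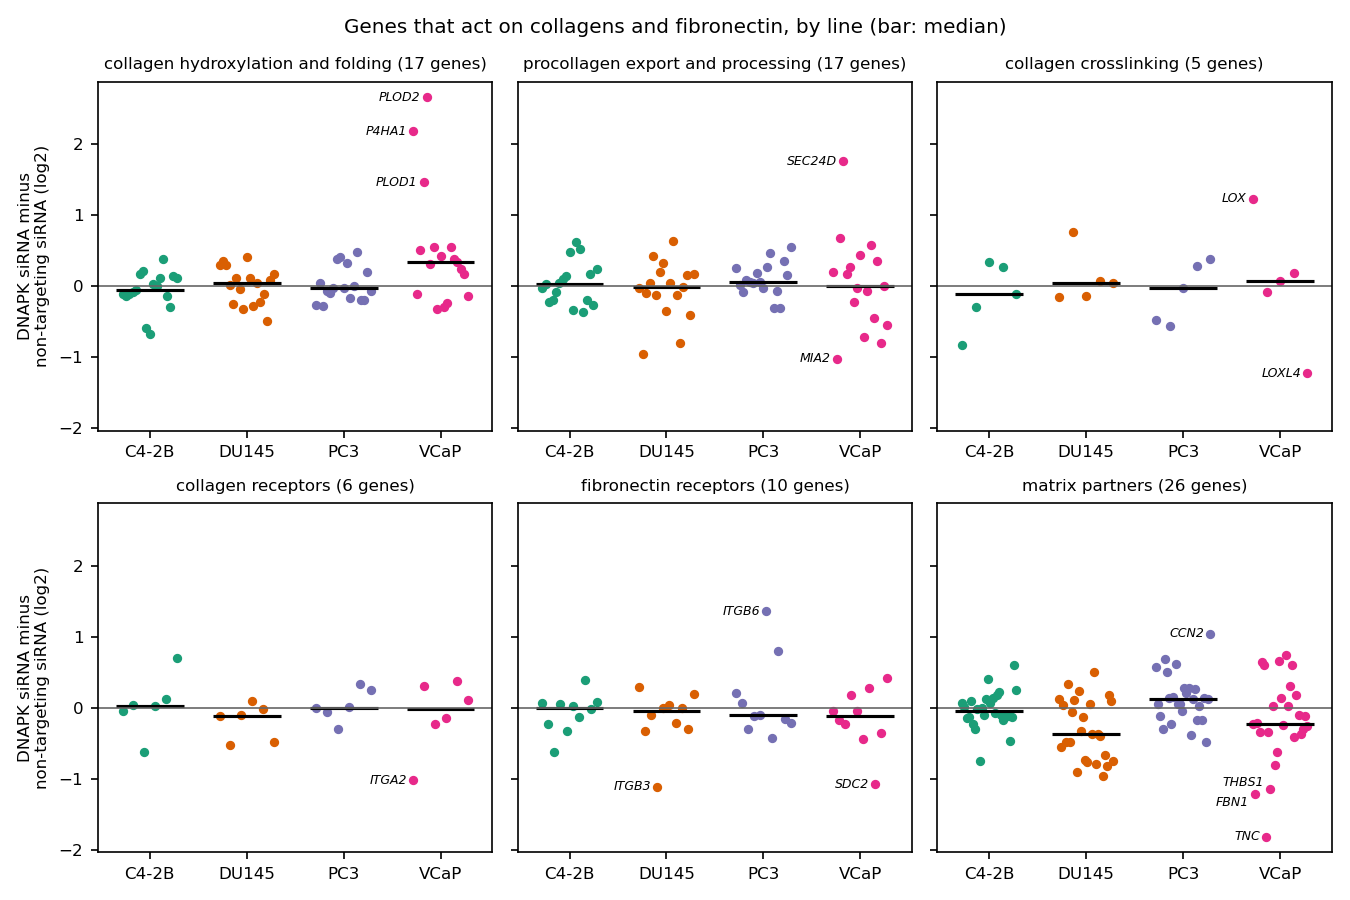
Difference in log2 signal per line, DNAPK siRNA minus control, for the genes of the 6 lists above the filter, with bars at the list medians. P4HA1, PLOD2, PLOD1 and SEC24D lie at 1.47 to 2.66 in VCaP and near 0 in the other lines, and THBS1 is below 0 in all lines but PC3.

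Of 17 export and processing genes, all above the filter, 11 had a mean above 0 and 6 below (median 0.08). SEC24D, a COPII coat gene needed for procollagen export, went from 5.78 to 7.54 in VCaP and differed by -0.18 to 0.09 elsewhere. MIA2, an exit-site gene with signals near the filter level, had -1.02 in VCaP, -0.95 in DU145 and about 0 in the others (0.03 and 0.01). The protease gene TLL2, also with signals near the filter level, had a mean of 0.42 ± 0.33. The procollagen protease enhancer gene PCOLCE2 had -0.42 ± 0.31. Of 5 lysyl oxidases, 2 had a mean above 0 and 3 below. LOX differed by -0.83 in C4-2B and 1.23 in VCaP, LOXL4 by -1.22 in VCaP, LOXL3 had a mean of 0.21 ± 0.10 and LOXL2 0.06 ± 0.21.

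Receptors are the genes through which cells bind these proteins. Of 6 collagen receptor genes above the filter 4 had a mean below 0 (median -0.03), and of 10 fibronectin receptor genes 6 (median -0.12). ITGB1, the integrin beta chain shared by the main receptors of both proteins, read 7.19, 8.08, 7.76 and 6.68 with control siRNA in C4-2B, DU145, PC3 and VCaP and 6.58, 7.98, 7.46 and 6.45 with DNAPK siRNA. It was lower in all 4 lines, by a mean of -0.31 ± 0.22 (limma, unadjusted p = 0.0402), and did not pass after adjustment. SDC4, a heparan sulphate co-receptor for fibronectin, was likewise lower in all 4, with a mean of -0.21 ± 0.15. So were ITGA2 among the receptors and PCOLCE2, FBLN1, LTBP1 and TGFBI in the other lists, where 5.89% of all genes were. COLGALT1, LOXL3 and FBLN2 of the other lists were higher in all 4, against 11.5% of all genes. The receptor genes with a difference past 1 each had it in a single line. These were ITGA2 (-1.02 in VCaP), ITGB3 (-1.11 in DU145), ITGB6 (1.36 in PC3) and SDC2 (-1.07 in VCaP, but 0.79 in PC3). GP6 and MRC2 had means of 0.21 ± 0.19 and 0.15 ± 0.48.

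Among 26 further matrix genes above the filter, 11 had a mean above 0 and 15 below (median -0.09). The medians were -0.04 (C4-2B), -0.36 (DU145), 0.12 (PC3) and -0.22 (VCaP). Of these 26 genes, 5 had an unadjusted p under 0.05, where 7.19% of all genes did, and none passed after adjustment. THBS1, thrombospondin 1, a matrix protein that binds both collagen and fibronectin, read 8.95, 8.35, 10.31 and 10.44 with control siRNA in C4-2B, DU145, PC3 and VCaP and 8.20, 7.44, 10.47 and 9.30 with DNAPK siRNA. It was thus lower in 3 lines and slightly higher in PC3, with a mean of -0.66 ± 0.57. TNC, tenascin C, differed by -1.81 in VCaP (7.34 to 5.52) and by -0.30 to 0.14 elsewhere. FBN1 (fibrillin 1) differed by -1.21 in VCaP, CCN2 by 1.04 in PC3, and FBLN2 (fibulin 2) had a mean of 0.44 ± 0.28 with 4 values above 0.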

How the data were processed

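Values are deposited log2 signals per probe set, 1 column per array. Oligo and RMA, without versions, are the tools in the submitters' processing notes; RMA forces the arrays to a common distribution, which removes a change shared by most genes. No scanner files were read, and hence no detection calls or scan batches, and the number of arrays limits the precision. Array medians lay between 2.94 and 2.99.

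Of 53617 probe sets, 23871 had exactly 1 gene symbol, 1842 several, and 27904 none. For 22569 probe sets the symbol was brought up to date by Entrez identifier (RefSeq, GRCh38.p14). A gene was read from its probe set of highest mean over 8 arrays. COL11A2 was the single member with more than 1 probe set (7). No probe coordinates were used.

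limma 3.58.1 (R 4.3.3) was fitted to the 16796 genes above the filter, with the line as a block for the siRNA difference (3 residual degrees of freedom) and the siRNA as a covariate for line levels, 2-sided, with Benjamini-Hochberg adjustment over all these genes for each contrast. Arrays are paired because both come from 1 line. Once the siRNA group means were removed, the correlation over genes was 0.864 to 0.918 within lines and at most 0.0135 between lines. Removing these means itself lowers the correlations between lines, so the low values between lines are no evidence for the pairing. An exact sign-flip test of 4 pairs cannot give a p below 0.125. The fits were tested on simulated data.

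The members and lists were chosen with earlier results of these data known. Differences are named for FN1, the 6 largest rises and falls of the mean, and members past 1 in any line. In each of the 6 lists they are named for the 4 largest means and genes past 1, above the filter. COL2A1 and the genes set beside a partner chain were named after their values were seen. Alternatives were other filters, median centring, cyclic loess, the mean of probe sets, a trended robust variance, no block, and leaving out each line.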

Additional observations from a re-analysis of the deposited data

Results flagged for a closer look

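In groups of 4 arrays or 4 line differences, a line was singled out where its gap to the nearest other exceeded Dixon's critical value for 4 values. Of 96 such groups over the 32 members, 9 were singled out. About 1 in 20 would be for 4 independent draws from 1 normal distribution. Here groups share arrays and many members differ in level between lines, so the 9 were not tested against that share. COL5A2 in PC3 was far above the other lines with control siRNA (7.94, next 3.74) and with DNAPK siRNA (8.22, next 3.495), and so was COL6A3 in PC3 (6.61, next 3.18, and 6.25, next 2.89). COL11A2 in VCaP was the lowest with control siRNA (3.61, next 3.88) and the highest with DNAPK siRNA (4.27, next 3.93), and its difference of 0.66 stood apart from the next, 0.05. The COL2A1 difference in VCaP was -0.90, with the next at 0.25. COL16A1 in DU145 read 2.82 with control siRNA, with the next at 3.09.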

How the results depend on the processing

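The siRNA difference of FN1 lay between -0.70 and -0.58 over 11 alternatives, with a limma adjusted p of 0.471 to 0.99998, and no alternative called any of the members. Without the replicate block that pairs the arrays of a line, FN1 had -0.64 with an adjusted p of 0.99998 and 0 members were called. With each line left out in turn, COL13A1 ranged from -0.51 (without DU145) to 0.17 (without PC3), and changed sign. With the filter at the median of all genes, 12 members were tested and the F test over lines called 10, because fewer genes were tested. Of 70 called pairwise line contrasts of members, 66 stayed past the threshold with median centring, 68 with cyclic loess, 67 with no filter and 67 with the trended robust variance. Of the 140 such calls that remained possible when a line was left out, 133 stayed, and none changed direction. The number of arrays is the main limit. A single culture per siRNA and line allows no test within a line, and members near 2.51 have little signal over background.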
